A study of Homo sapiens with 7 samples.

Results

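The tripartite motif (TRIM) genes were followed in MCF-10A cells carrying a hairpin against Brit1. They were chosen by name, as every probe whose gene symbol begins with TRIM and a digit, with no measured value used. This rule found 110 probes for 70 genes, of 48701 probes and 19304 named genes on the array. Family members that carry other symbols, such as PML, were kept apart as a separate list.

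TRIM proteins share an amino-terminal RING domain, 1 or more B-boxes and a coiled coil, and the RING of most members makes them ubiquitin ligases that take ubiquitin from an E2 enzyme and pass it to a chosen substrate. The carboxy-terminal domain differs between members and picks the substrate: a SPRY domain in the largest class, a COS box that binds microtubules, a plant homeodomain with a bromodomain that reads chromatin, or NHL repeats. Many SPRY members are induced by interferon and restrict viruses or tune the signalling of nucleic acid sensors, while others act in the cell cycle, at the centrosome or in epithelial tissue.

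MCF-10A is a non-transformed human mammary epithelial line. The 3 shControl samples were of cells stably carrying a scrambled hairpin and the 4 shBrit1 samples of cells stably carrying a hairpin against Brit1, a gene of homologous recombination; both hairpins had been delivered by lentivirus and the cells selected. All were harvested 48 hours after seeding, and each sample was hybridised to 1 Illumina bead array. The labels state neither the hairpin's sequence nor how many clones stand behind each group, the targeted gene was not analysed here, and the group names therefore rest on the labels.

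Per array, 16537 to 17343 of the 48701 probes were detected (detection p under 0.05), among them 47 to 52 of the 110 TRIM probes. Control replicate 3 stood apart from the other controls. Its sample description is also written in another form than theirs, and what the form means is not stated. Whether the other controls share a source could not be told, which limits the fits without control 3. Over the 45 TRIM genes tested, the log2 signals of controls 1 and 2 differed with an SD of 0.21, whereas control 3 differed from them with SDs of 0.46 and 0.39, and pairs of shBrit1 arrays with SDs of 0.14 to 0.28. Pairs of 1 control and 1 shBrit1 array differed with SDs of 0.48 to 0.72. Called values that control 3 moved by over 1.5 times are given with and without it. Of 6 basal mammary epithelial markers on the array, 5 were detected on all 7 arrays, and 3 were called lower and 1 higher in shBrit1 cells: the keratin KRT14 had a log2 difference of -1.72 (-1.16 without control 3) and the integrin ITGB4 one of 0.98. Of 7 tested luminal markers 2 were called higher and 2 lower, from EPCAM at -0.70 (-1.09 without control 3) to the transcription factor GATA3 at 2.48. The shares were 16.7% higher and 50% lower for the basal markers, and 28.6% each way for the luminal markers. Beside every marker count here stand 29.5% higher and 30.1% lower of all tested genes. Among these markers, the basal ITGA6 was detected on no shBrit1 array and the luminal KRT19 on neither control 1 nor control 2. Their results are therefore no independent support. The summed linear signal of the basal markers was 29900 to 60500 on the controls and 24400 to 27100 on the shBrit1 arrays, and that of 8 luminal markers 3270 to 8420 and 6490 to 6690. Of 7 fibroblast markers, PDGFRB, PDGFRA, LUM and THY1 were detected on no array and 2 were called higher, with a summed signal of 245 to 270 on the controls and 378 to 416 on the shBrit1 arrays. Of 5 immune markers, CD3E was detected on no array and PTPRC on 1 control, whereas CD14 and CD68 were called higher, and the summed signal was 540 to 572 on the controls and 1850 to 2310 on the shBrit1 arrays. The part of these shifts in the TRIM results was not tested, and fewer cells of a type cannot be told apart from less RNA per cell.

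Promoter windows are shown for 5 members whose regulation the arrays bear on: 4 interferon-linked genes, of which TRIM38 was called higher and TRIM5, TRIM21 and TRIM26 were not called, and TRIM37, which was called lower. Each runs from 250 bases before the gene's start to 50 bases after it, 5' to 3' on the gene's strand, from RefSeq on GRCh38.p14. Capitals mark matches to GAAANNGAA, the core of the interferon-stimulated response element, or to TTTGGCGC or TTTCCCGC, the letters of an E2F site, on either strand.
TRIM21 (chr11:4393653-4393952, minus strand): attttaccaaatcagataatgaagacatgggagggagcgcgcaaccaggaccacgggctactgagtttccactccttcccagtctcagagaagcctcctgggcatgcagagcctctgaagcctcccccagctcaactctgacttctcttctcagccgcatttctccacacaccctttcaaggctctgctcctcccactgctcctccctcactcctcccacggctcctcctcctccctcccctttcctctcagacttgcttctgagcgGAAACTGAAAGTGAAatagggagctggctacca
TRIM5 (chr11:5685025-5685324, minus strand): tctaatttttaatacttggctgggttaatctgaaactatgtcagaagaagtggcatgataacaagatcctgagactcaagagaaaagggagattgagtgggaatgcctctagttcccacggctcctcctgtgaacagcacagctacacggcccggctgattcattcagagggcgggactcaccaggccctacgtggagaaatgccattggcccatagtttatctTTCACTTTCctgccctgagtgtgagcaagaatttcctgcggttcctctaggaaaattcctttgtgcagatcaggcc
TRIM26 (chr6:30213357-30213656, minus strand): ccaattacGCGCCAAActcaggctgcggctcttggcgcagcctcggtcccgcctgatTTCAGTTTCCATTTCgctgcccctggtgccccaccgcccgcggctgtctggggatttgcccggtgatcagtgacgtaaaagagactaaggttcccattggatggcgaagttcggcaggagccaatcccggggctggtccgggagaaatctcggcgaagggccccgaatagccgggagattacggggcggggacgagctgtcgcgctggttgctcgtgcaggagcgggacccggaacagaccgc
TRIM38 (chr6:25962552-25962851, plus strand): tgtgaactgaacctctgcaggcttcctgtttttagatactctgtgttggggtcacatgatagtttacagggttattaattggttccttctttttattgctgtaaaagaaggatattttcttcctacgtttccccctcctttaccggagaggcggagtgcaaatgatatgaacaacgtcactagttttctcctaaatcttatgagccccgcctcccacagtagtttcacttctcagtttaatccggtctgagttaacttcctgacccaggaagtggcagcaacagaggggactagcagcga
TRIM37 (chr17:59106831-59107130, minus strand): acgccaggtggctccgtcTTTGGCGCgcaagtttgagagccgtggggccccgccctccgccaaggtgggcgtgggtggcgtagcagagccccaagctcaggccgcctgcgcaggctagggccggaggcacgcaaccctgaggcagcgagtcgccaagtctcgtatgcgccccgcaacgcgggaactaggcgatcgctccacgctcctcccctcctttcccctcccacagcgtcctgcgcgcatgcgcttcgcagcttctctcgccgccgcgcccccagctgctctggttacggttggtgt

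In the TRIM21 window 2 overlapping matches to GAAANNGAA begin 17 and 23 bases after the start. TRIM5 has 1 such match, on the opposite strand, from 26 bases before the start. TRIM26 has 2 that overlap, 193 and 187 bases before the start, and an E2F match 242 bases before it. TRIM37 has an E2F match 232 bases before its start, and the TRIM38 window has neither set of letters. Windows were given for 52 of the 70 TRIM genes. The GAAANNGAA letters stood in 14.5% of the 69 TRIM windows and in 6 of the 10 windows of interferon-linked TRIM genes, beside 8.11% of all 35116 windows. By call, they stood in 0 of 8 windows of TRIM genes called higher, 1 of 7 of those called lower and 6 of 32 of those not called. These windows belong to 6 of the 12 genes called higher, to all 5 called lower and to 22 of the 28 not called. Some genes have several windows, and TRIM22 and TRIM29, both called higher, were among those with none. The other genes called higher were therefore not examined for these letters. E2F letters stood in 4 of the 69 TRIM windows (5.8%), those of TRIM7, TRIM26, TRIM37 and TRIM44, beside 2.27% of all windows. These matches are letters in a window and were not tested as binding sites.

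Of the 70 TRIM genes, 45 had at least 1 probe that passed the filter of detection on at least 3 of the 7 arrays, and these 55 probes were tested. The other 25 genes had no tested probe. Of these, 19 were detected on no array, among them the muscle ligases TRIM63 and TRIM55, the membrane repair gene TRIM72, the stem cell gene TRIM71 and the primate-expanded TRIM49B, TRIM49D1 and TRIM64. The remaining 6, TRIM34, TRIM40, TRIM50, TRIM58, TRIM67 and TRIM69, were detected on 1 or 2 arrays. Of the 110 TRIM probes, 39 were detected on all 7 arrays and 46 on none.

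Among the 45 tested genes, each taken by its brightest tested probe, 12 were called higher in shBrit1 cells, 5 lower and 28 were not called (limma, Benjamini-Hochberg adjusted p under 0.05 over all 17967 tested probes). With median scaling in place of quantile normalization, which moved the median of all tested probes to -0.10, the split was 6 higher and 9 lower, and without any 1 of the 4 shBrit1 arrays 3 genes were called lower. Over all tested probes, 4840 were called lower in the main fit. Median scaling gave 5690 lower, and leaving out 1 shBrit1 array gave 4282 to 4426. The called genes made 37.8% of the TRIM genes (26.7% higher and 11.1% lower), against 59.6% of all 12372 tested genes (29.5% higher and 30.1% lower). The median absolute log2 difference of the TRIM genes was 0.24, against 0.46 over all genes, and their median log2 difference was 0.10, against -0.01. A called difference of at least 2-fold was found for 3 TRIM genes (6.67%), against 19.5% of all genes. The arrays of both groups did not overlap for 20 TRIM genes (44.4%), against 61.8% of all genes. TRIM62, 1 of the 5 genes called lower, and TRIM46, not called, passed the filter through detection in 1 group only. Among the 34 TRIM genes detected on all 7 arrays, 12 were called higher and 1 lower, a share of 38.2% against 63% of all such genes. Of all 10293 genes detected on all 7 arrays, 3046 were called higher and 3442 lower.

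**Figure D1:**
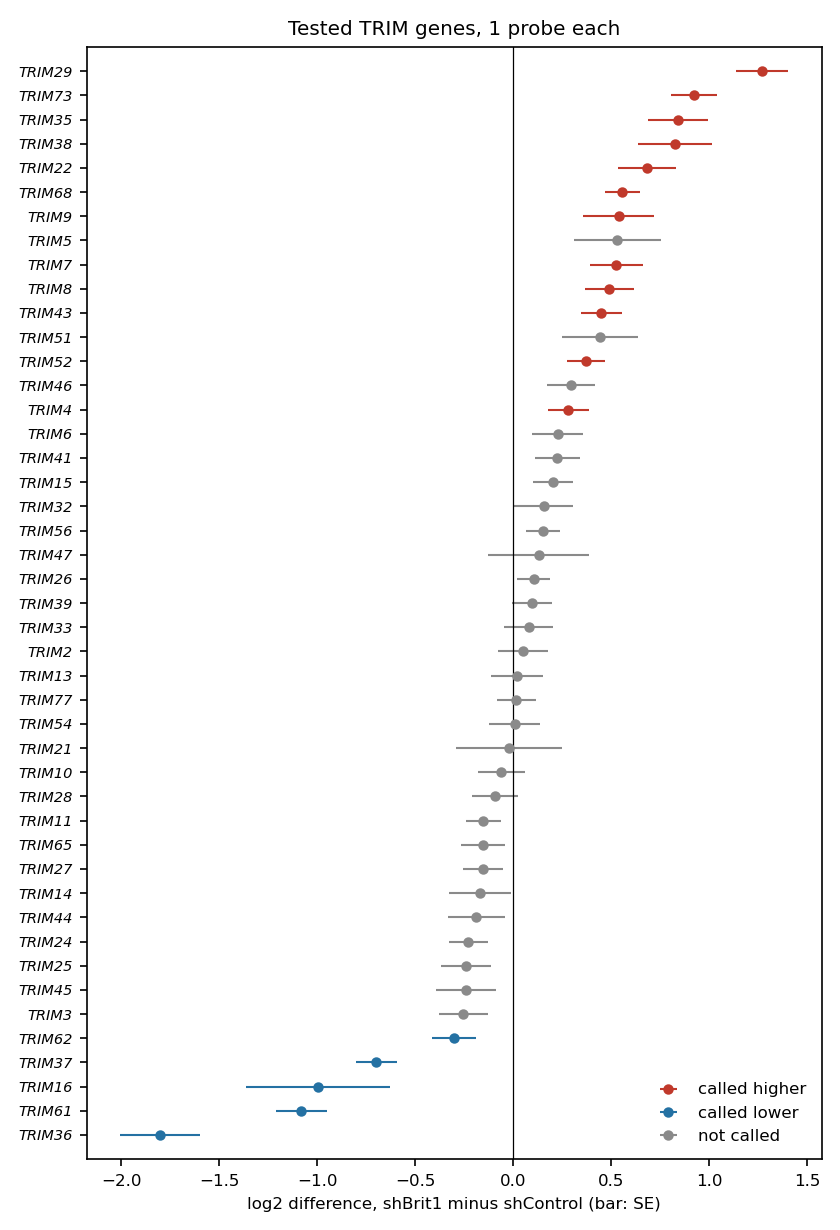
The 45 tested TRIM genes, 1 probe each, ordered by their log2 difference (horizontal axis, shBrit1 minus shControl; bars are SE). The genes run from TRIM36 at -1.80 to TRIM29 at 1.27, with 12 called higher, 5 called lower and 28 not called, a split of 6 higher and 9 lower with median scaling.

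Without control 3, 18 TRIM genes (40%) were called higher and 5 (11.1%) lower, against 34.4% and 34.8% of all genes. All 12 higher and all 5 lower genes of the fit on 7 arrays were called the same way there. The 6 genes called higher only without control 3 were TRIM41, TRIM32, TRIM47, TRIM21, TRIM6 and TRIM51. Log2 signals on every array are given for the called genes that moved at least 2-fold and for the called interferon-linked genes; those of TRIM73, TRIM35, TRIM37, TRIM16, TRIM21, TRIM5 and TRIM47 were chosen after their values were seen.

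TRIM29, a member without a RING that is abundant in basal and squamous epithelium, had the largest increase. Its signal on the log2 scale was 8.41, 8.59 and 8.87 on the controls and 9.67, 9.94, 10.01 and 9.96 on the shBrit1 arrays. Every shBrit1 array stood above every control, and shBrit1 replicate 1 was the lowest of its group. The mean went from 8.62 ± 0.23 (SD, n = 3) to 9.89 ± 0.15 (SD, n = 4), a log2 difference of 1.27 (SE 0.13, limma adjusted p = 5.56e-05) or 2.41-fold. A second TRIM29 probe was higher by 1.06 on the log2 scale (SE 0.14), and another, detected on 3 arrays, gave -0.01 and was not called. The mean of the 3 TRIM29 probes gave 0.77 and was called.

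TRIM73, TRIM35, TRIM8 and TRIM52 followed in the same direction. TRIM73, a short member whose sequence is nearly identical to TRIM74 and close to TRIM50 so that its probe may read more than 1 gene, had log2 signals of 6.57, 6.40 and 6.41 on the controls and 7.64, 7.18, 7.36 and 7.35 on the shBrit1 arrays. The groups did not overlap, and the log2 difference was 0.92 (SE 0.12, limma adjusted p = 0.000204), or 0.56 with no background correction. TRIM35, a SPRY member linked to macrophage and innate signalling, had 7.09, 7.22 and 7.04 on the controls and 7.56, 7.98, 8.05 and 8.24 on the shBrit1 arrays. TRIM35 was higher on every shBrit1 array, with the smallest step on replicate 1, and its log2 difference was 0.84 (SE 0.15, limma adjusted p = 0.00155). TRIM8, which acts in NF-kappaB and JAK-STAT signalling, was higher by 0.49 (SE 0.12, limma adjusted p = 0.00884). TRIM52, a gene with an unusually long RING, was higher by 0.37 (SE 0.09, limma adjusted p = 0.00909). TRIM8 and TRIM52 were not called with median scaling, where they gave 0.14 and 0.20.

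TRIM36 had the largest decrease. It encodes a COS-box ligase that binds microtubules and is known for roles in the cell cycle and in the acrosome of sperm. Its log2 signals were 6.69, 7.17 and 7.56 on the controls and 5.02, 5.46, 5.36 and 5.51 on the shBrit1 arrays, of which 3 detected it. The groups were far apart, although the controls alone spanned more than the shBrit1 arrays did. The log2 difference was -1.80 (SE 0.20, limma adjusted p = 8.80e-05), or 3.49-fold lower, and without control 3 it was -1.59. The size depended on the background correction: the difference was -0.93 with none, -1.08 with normexp that used no negative controls and -1.03 on the authors' deposited values, called lower in each. TRIM36 had 3 further probes, all undetected on every array.

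TRIM61, a RING and B-box gene of little known function, had log2 signals of 6.08, 5.99 and 6.48 on the controls and 5.00, 5.11, 5.22 and 5.09 on the shBrit1 arrays. It was detected on 2 of the 4 shBrit1 arrays, and all 4 lay below the controls. TRIM61 therefore met the detection filter only with the controls, where it was higher, so its call is no independent support. The log2 difference was -1.08 (SE 0.13, limma adjusted p = 0.000122), or 2.11-fold lower. It was -0.49 with no background correction and -0.56 on the authors' deposited values, called lower in both.

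TRIM37, a ligase with a MATH domain that acts on peroxisomal import and restrains centrosome assembly, was the 1 gene called lower that was detected on all 7 arrays. Its log2 signals were 10.11, 10.22 and 10.02 on the controls and 9.29, 9.54, 9.54 and 9.31 on the shBrit1 arrays. The groups did not overlap, and the log2 difference was -0.70 (SE 0.10, limma adjusted p = 0.000497), or 1.62-fold lower. A second TRIM37 probe gave -0.27 (SE 0.16) and was not called.

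TRIM16, a member without a RING that is known in keratinocytes and in the removal of damaged lysosomes, was lower by a margin set largely by control 3. Its log2 signals were 5.45, 5.75 and 7.24 on the controls and 5.18, 5.23, 4.93 and 5.27 on the shBrit1 arrays. Control 3 stood 1.64 above the mean of the other controls, yet all shBrit1 arrays lay below every control. The log2 difference was -0.996 (SE 0.37, limma adjusted p = 0.0454), or 1.99-fold lower, and without control 3 it was -0.45 (SE 0.12, limma adjusted p = 0.0063). With no background correction it was -0.49, and TRIM16 was not called. A second TRIM16 probe, detected on all 3 controls and on no shBrit1 array, was at least 1.80-fold lower, a bound set by the dimmest detected signals, and at least 1.37-fold lower without control 3. That probe passed the detection filter through the controls alone. TRIM16L, a close copy, may share these probes. TRIM62, a SPRY ligase known for keeping the polarity of mammary acini, was detected on all 3 controls and on no shBrit1 array. TRIM62 therefore passed the detection filter only through the group where it was higher, so its call is no independent support, and it was at least 1.10-fold lower.

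**Figure D2:**
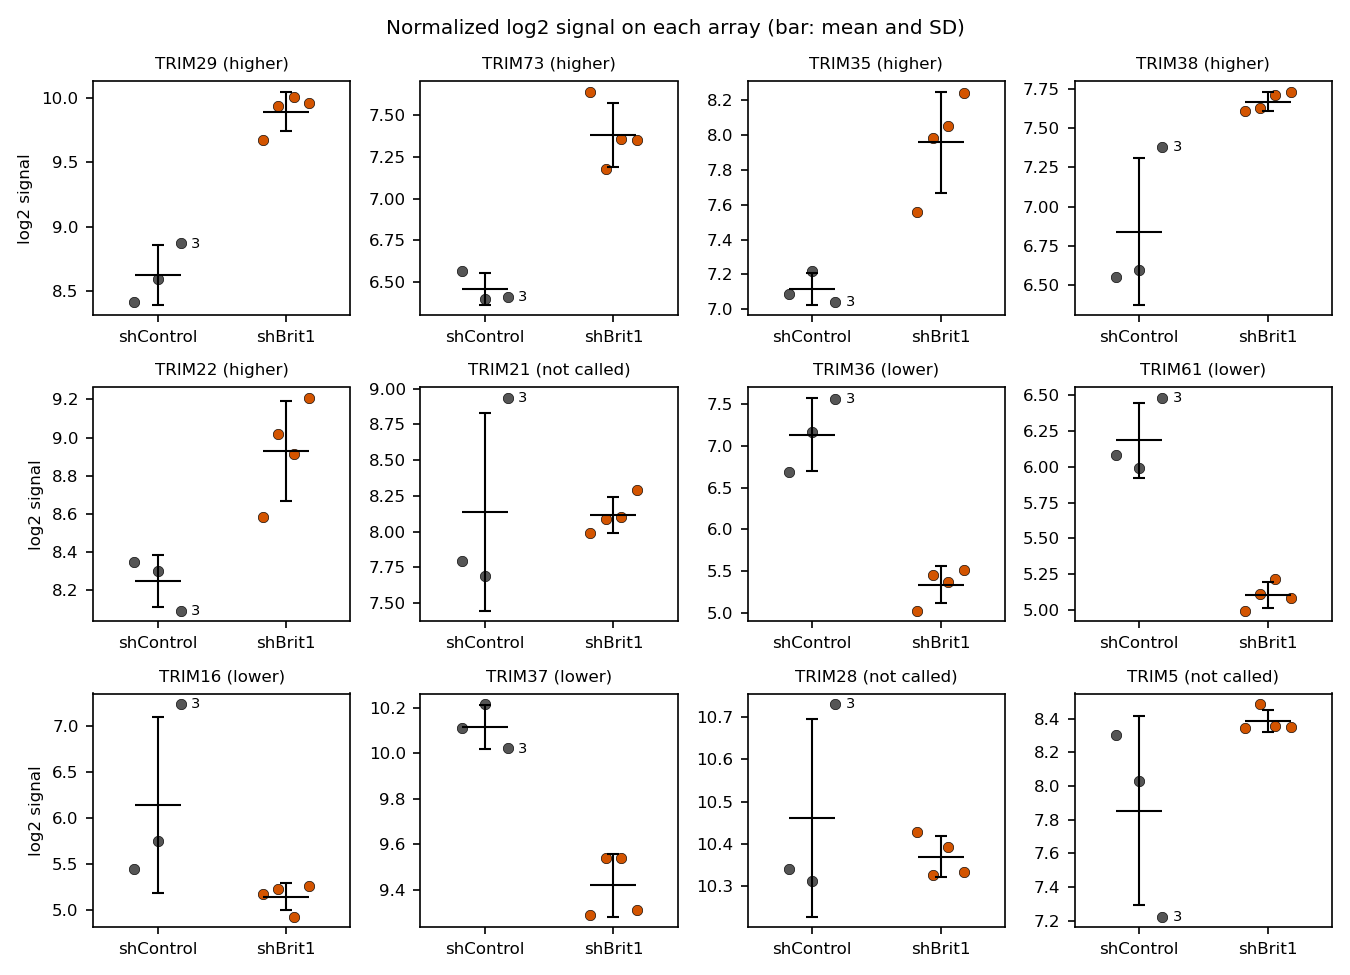
Normalized log2 signal (vertical axis) of 12 TRIM genes on each of the 3 shControl and 4 shBrit1 arrays; points are arrays, bars mean and SD, and control replicate 3 is marked 3. TRIM29 lies at 8.41 to 8.87 on the controls and 9.67 to 10.01 on the shBrit1 arrays, while control 3 is the control farthest from the other controls for TRIM21, TRIM16 and TRIM5, among others.

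The SPRY class held 25 tested genes, of which 7 were called higher (TRIM35, TRIM38, TRIM22, TRIM68, TRIM7, TRIM43 and TRIM4) and 2 lower (TRIM16 and TRIM62). These shares, 28% and 8%, stand beside 29.5% and 30.1% of all genes. The median log2 difference of the class was 0.13, beside 0.10 for all tested TRIM genes. With median scaling TRIM22, TRIM68, TRIM7 and TRIM4 were no longer called. TRIM68, a ligase that acts on the androgen receptor, was higher by 0.56 (SE 0.09, limma adjusted p = 0.000766). TRIM7, which binds glycogenin, was higher by 0.53 (SE 0.14, limma adjusted p = 0.00953). TRIM43, a gene of the early embryo with the close copy TRIM43B, was higher by 0.45 (SE 0.10, limma adjusted p = 0.00555). TRIM4, which acts on the RNA sensor RIG-I, lay near the threshold at 0.28 (SE 0.11, limma adjusted p = 0.0497), while TRIM46, a COS-box gene detected on 3 shBrit1 arrays and on no control, was not called and was at least 1.05-fold higher.

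Of the 8 tested interferon-linked TRIM genes, 2 were called higher (25%, beside 29.5% of all genes) and none lower (beside 30.1%), with a median of 0.13. At an unadjusted p under 0.05 the count was 3 higher and 0 lower. Of all 12372 genes, 3939 were higher and 4022 lower at that threshold, and these stand beside every unadjusted count given here. TRIM38, which restrains Toll-like receptor and TNF signalling, had log2 signals of 6.55, 6.60 and 7.38 on the controls and 7.61, 7.63, 7.71 and 7.73 on the shBrit1 arrays. Control 3 came close to the shBrit1 arrays without reaching them. The log2 difference was 0.83 (SE 0.19, limma adjusted p = 0.00525), and without control 3 it was 1.10 (SE 0.09), or 2.14-fold. With no background correction it was 0.54, and TRIM38 was called higher there too. TRIM22, an antiviral gene of the chromosome 11 cluster, had 8.35, 8.30 and 8.09 on the controls and 8.58, 9.02, 8.91 and 9.21 on the shBrit1 arrays. TRIM22 did not overlap between the groups and was higher by 0.68 (SE 0.15, limma adjusted p = 0.00409), but gave 0.46 and was not called with median scaling.

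TRIM21, the cytosolic antibody receptor, had log2 signals of 7.79, 7.69 and 8.93 on the controls and 7.99, 8.09, 8.10 and 8.29 on the shBrit1 arrays. Control 3 was the highest array of all and controls 1 and 2 were the lowest. The log2 difference was -0.02 (SE 0.27, limma adjusted p = 0.959) over all arrays and 0.38 (SE 0.10, limma adjusted p = 0.00658) without control 3. TRIM5, the factor that intercepts retroviral capsids, showed the opposite shift of control 3, with 8.30, 8.03 and 7.22 on the controls and 8.34, 8.49, 8.36 and 8.35 on the shBrit1 arrays. Its log2 difference was 0.53 (SE 0.22, limma adjusted p = 0.0713), and without control 3 it was 0.22 (SE 0.10, limma adjusted p = 0.0785), so that TRIM5 was not called in either fit. Without control 1 instead, TRIM5 was called higher (0.76, limma adjusted p = 0.0145), and TRIM25 (-0.37) and TRIM14 (-0.36) were called lower. TRIM25, which activates RIG-I and joins ISG15 to proteins, gave -0.24 (SE 0.13). TRIM14, an adaptor at mitochondria, gave -0.17 (SE 0.16), TRIM56, a ligase of the STING pathway, 0.15 (SE 0.09), and TRIM26 0.11 (SE 0.08), none of them called over all 7 arrays.

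**Figure D3:**
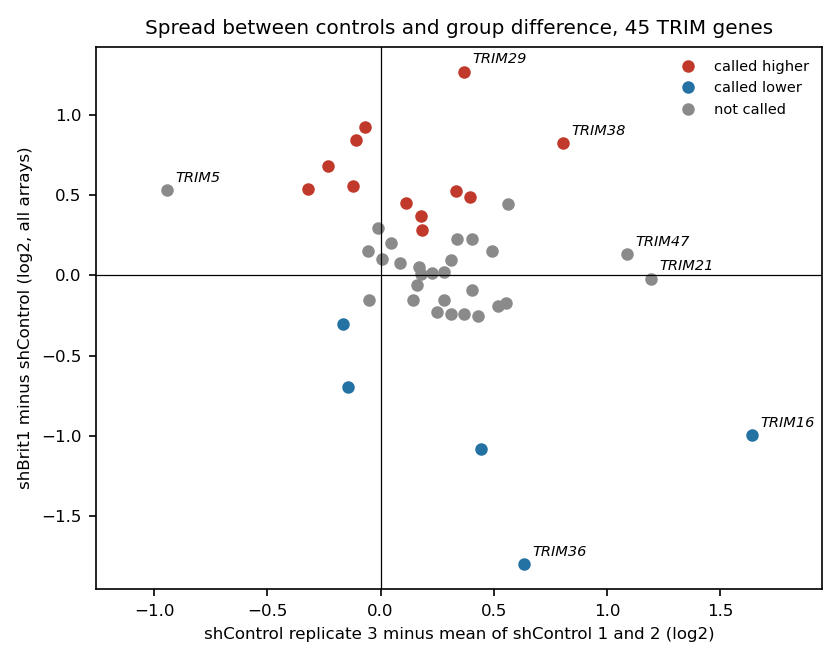
Each point is 1 of the 45 tested TRIM genes, with the log2 signal of control replicate 3 minus the mean of controls 1 and 2 on the horizontal axis and the log2 difference between shBrit1 and shControl over all arrays on the vertical axis; both axes use control 3. TRIM16 (1.64), TRIM21 (1.19), TRIM47 (1.09) and TRIM5 (-0.94) lie farthest from 0 on the horizontal axis.

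TRIM genes also lie in clusters. Of 6 tested genes of the 11p15 cluster, TRIM22 and TRIM68 were called higher by limma (33.3%, near the 29.5% of all genes) and none lower (3 and 0 at an unadjusted p under 0.05), with a median of 0.38. Without control 3 the count was 4 higher and 0 lower, beside 34.4% and 34.8% of all genes. Of 6 tested genes of the major histocompatibility region, TRIM38 was called higher (16.7%, beside the same 29.5%) and none lower (1 and 0 at an unadjusted p under 0.05), with a median of 0.10. By chromosome, 10 tested TRIM genes lay on chromosome 11 with 3 called higher, and 5 on chromosome 17 with 2 called lower, beside 29.5% and 30.1% of all genes. TRIM47, a ligase gene on chromosome 17, had log2 signals of 8.81, 8.61 and 9.80 on the controls and 9.33, 9.08, 9.37 and 9.03 on the shBrit1 arrays. TRIM47 on control 3 exceeded every other array. Its log2 difference was 0.13 (SE 0.26, limma adjusted p = 0.7), and without control 3 it was 0.49 (SE 0.12, limma adjusted p = 0.00337).

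None of the 3 tested chromatin-reading members with a plant homeodomain and a bromodomain was called by limma, except that TRIM24 (-0.51) and TRIM28 (-0.43) were called lower with median scaling. Their median was -0.09, and at an unadjusted p under 0.05 none was higher and 1, TRIM24, was lower. Among all tested genes 59.6% were called, and a list of 3 genes is too short to compare with that share. TRIM28, the corepressor that zinc finger proteins recruit to silence retroelements, had log2 means of 10.46 ± 0.23 (SD, n = 3) and 10.37 ± 0.05 (SD, n = 4), a difference of -0.09 (SE 0.12, limma adjusted p = 0.547). TRIM33, which acts on SMAD4 signalling, gave 0.08 (SE 0.13, limma adjusted p = 0.633). TRIM24, a nuclear receptor coregulator, gave -0.23 (SE 0.10, limma adjusted p = 0.0778). For TRIM24 the groups did not overlap, although the shBrit1 maximum of 9.41 lay close to the control minimum of 9.44, and TRIM24 was called lower in 5 alternatives, among them the authors' deposited values (-0.21).

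The 4 tested members with NHL or filamin domains were not called by limma either (beside 59.6% of all genes), and 0 of them passed an unadjusted p under 0.05. TRIM2, TRIM3, TRIM32 and TRIM45 gave log2 differences of 0.05, -0.25, 0.16 and -0.24. TRIM32, mutated in a limb-girdle muscular dystrophy, was called without control 3 (0.32, limma adjusted p = 0.0277). TRIM13, a transmembrane ligase of the endoplasmic reticulum, gave 0.02 (SE 0.13). Among 4 tested COS-box genes, TRIM36 was called lower (25%, beside 30.1% of all genes) and TRIM9 higher (25%, beside 29.5%). TRIM9, known as a neuronal ligase, had a log2 difference of 0.54 (SE 0.18, limma adjusted p = 0.0337), and its groups overlapped. A second TRIM9 probe, detected on all 3 controls and 1 shBrit1 array, was called the other way at -0.41 (SE 0.13, limma adjusted p = 0.0224). That probe met the detection filter through the controls, where it was higher, so its call is no independent support. The sign for TRIM9 thus differed between these probes, and the mean of both was 0.06 and not called.

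Of the tested genes, 9 had more than 1 tested probe, and the probes of 1 gene share its RNA and are not replicates. TRIM29 and TRIM16 each had 2 probes called in the same direction. TRIM9 had probes called in opposite directions, but the one called lower met the detection filter through the controls. TRIM27, which acts on endosomal sorting, was not called by its brightest probe (-0.15, SE 0.10) but was lower by its second (-0.47, SE 0.11, limma adjusted p = 0.00608). For TRIM15 and TRIM54 the second probe was detected on all 4 shBrit1 arrays and on no control, so that it passed the filter through shBrit1 alone, and was higher by at least 1.27-fold for TRIM15 and 1.08-fold for TRIM54. Over all 55 tested TRIM probes, 23 were called (41.8%), 15 of them higher (27.3%) and 8 lower (14.5%), against 53.8% of all tested probes (26.9% higher and 26.9% lower); with median scaling 8 were called higher.

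**Figure D4:**
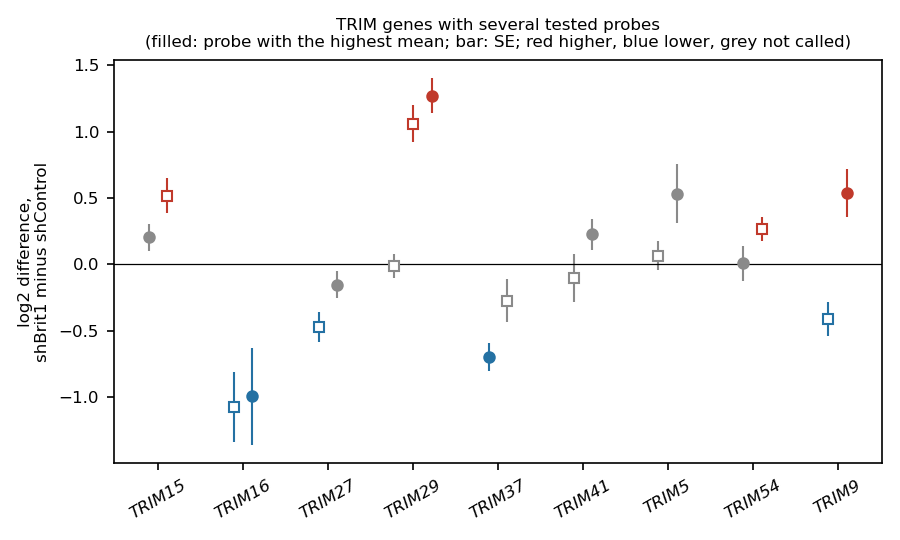
Log2 difference (vertical axis, shBrit1 minus shControl; bars are SE) of each tested probe for the 9 TRIM genes with more than 1. Filled points are the probe used for the gene and open points the others; the TRIM29 probes lie at 1.27, 1.06 and -0.01, and the TRIM9 probes at 0.54 and -0.41.

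Members of the family with other symbols were read beside these. PML, which builds nuclear bodies, had log2 signals of 5.23, 5.43 and 7.13 on the controls and 7.57, 7.91, 7.96 and 7.81 on the shBrit1 arrays. PML was higher on every shBrit1 array, by 1.88 (SE 0.40, limma adjusted p = 0.00345) or 3.69-fold, and by 5.59-fold without control 3. MID1, a COS-box ligase that controls a protein phosphatase at microtubules, was lower by a log2 difference of -0.64 (SE 0.09, limma adjusted p = 0.000296). TRIML2, a member without a RING, was detected on no shBrit1 array and passed the filter through the controls alone, so its call is no independent support. TRIML2 was at least 1.68-fold lower, and at least 1.49-fold lower without control 3. Without control 3, 2 of the 4 tested genes of this list were called higher and 2 lower, beside 34.4% and 34.8% of all genes. The 2 called lower include TRIML2.

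Of 9 tested E2 enzymes that can charge TRIM ligases, 1 was called higher and 5 lower, with a median log2 difference of -0.62, beside 29.5% and 30.1% of all genes. The list held 14 genes, and UBE2D1, UBE2D2, UBE2D3, UBE2L3 and UBE2W were not named by the annotation. These counts therefore do not cover the whole class. UBE2L6, the E2 of the ubiquitin-like protein ISG15, had log2 signals of 5.65, 6.03 and 7.84 on the controls and 10.58, 10.29, 10.25 and 10.16 on the shBrit1 arrays. The groups lay far apart, with control 3 the highest control, and UBE2L6 was 14.1-fold higher (limma adjusted p = 0.000108), or 22.4-fold without control 3. UBE2N, which builds the lysine-linked chains that many innate TRIM proteins use, had log2 signals of 10.80, 10.78 and 10.99 on the controls and 9.67, 9.68, 9.61 and 9.73 on the shBrit1 arrays. UBE2N was 2.27-fold lower (limma adjusted p = 8.28e-06), and its cofactor UBE2V2 was 2.40-fold lower (limma adjusted p = 3.64e-06). UBE2D4 was lower by a log2 difference of -0.62. UBE2K (-0.67) and UBE2V1 (-0.88), named after their values were seen, were lower as well. Among 5 tested ubiquitin and E1 genes, UBA7, the E1 of ISG15, was higher (1.47, SE 0.15), while the ubiquitin E1 genes UBA6 (-1.37, SE 0.12) and UBA1 (-0.55, SE 0.15) were lower. These shares, 20% higher and 40% lower, stand beside 29.5% and 30.1% of all genes. ISG15 itself, named after its values were seen, was not called over all 7 arrays. Without control 3, ISG15 was higher by 1.43 (limma adjusted p = 3.61e-07). Without control 3, 2 of the E2 genes and 3 of the ubiquitin and E1 genes were called higher, beside 34.4% of all genes.

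TRIM28 itself was not called. Of 11 genes of its corepressor partners, 5 were called higher (45.5%, beside 29.5% of all genes) by limma and none lower (5 and 1 at an unadjusted p under 0.05), with a median log2 difference of 0.30. The 4 with the smallest p were CHD4, a remodeller of the NuRD complex (0.79, SE 0.10), SETDB1, the histone methyltransferase that TRIM28 recruits (0.82, SE 0.11), and the heterochromatin proteins CBX5 (0.75, SE 0.12) and CBX1 (0.69, SE 0.16).

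Of 18 genes of innate signalling proteins on which TRIM ligases act, 6 were called higher (33.3%) and 6 lower (33.3%), near the 29.5% and 30.1% of all genes, with a median of 0.04. CGAS, the cytosolic DNA sensor, was lower by a log2 difference of -1.52 (SE 0.10) and TRAF6, a ligase downstream of Toll-like receptors, by -0.73 (SE 0.10). TAB1, a subunit of the TAK1 kinase complex, was higher by 0.71 (SE 0.10). TLR3, a receptor of double-stranded RNA that was detected on no control, was at least 1.38-fold higher. TLR3 passed the detection filter through shBrit1 alone, so its result is no independent support. Without control 3 the count was 9 higher and 6 lower, beside 34.4% and 34.8% of all genes. Of 9 tested interferon receptor and JAK-STAT genes, 3 were called higher and 1 lower: IRF9 (1.76, SE 0.23), IRF1 (0.87, SE 0.32) and IRF2 (0.36, SE 0.13), which bind interferon-responsive promoters, and SOCS1 (-1.06, SE 0.28), which restrains the receptors. These shares, 33.3% and 11.1%, stand beside 29.5% and 30.1% of all genes. Without control 3, IRF1 gave 1.35 and SOCS1 -0.65, and 4 genes of the list were called higher, beside 34.4% of all genes. IRF9 was higher 3.39-fold over all arrays, beside 1.77-fold for TRIM38 and 1.61-fold for TRIM22.

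On the authors' deposited values several of these partner differences were smaller: PML gave 1.18, UBA7 0.81, UBE2V1 -0.49, CGAS -0.86, TRAF6 -0.46, IRF2 0.18 and SOCS1 -0.70.

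**Figure D5:**
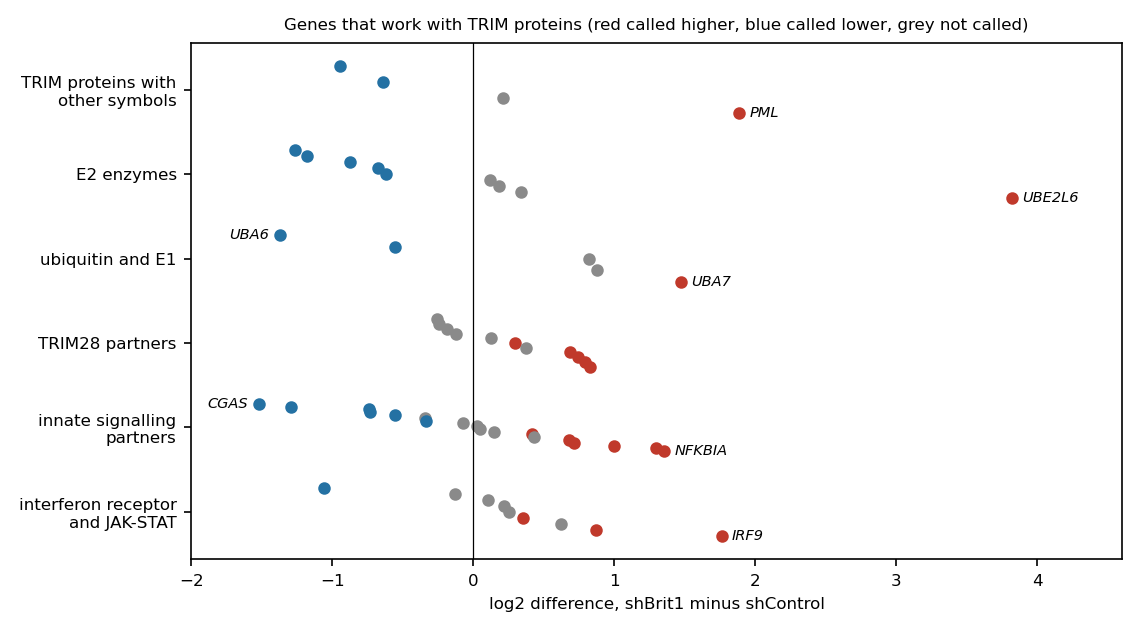
Log2 difference (horizontal axis, shBrit1 minus shControl) of each tested gene in 6 lists of genes that work with TRIM proteins; red points were called higher, blue lower and grey not called. UBE2L6 lies at 3.82 and PML at 1.88, above the TRIM genes' own range of -1.80 to 1.27, and CGAS lies at -1.52, within it.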

How the data were processed

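RNA of 3 shControl and 4 shBrit1 samples of MCF-10A, described as biological replicates, was read on 1-colour Illumina bead arrays, with groups taken from the sample titles. Per the file headers, the deposited table holds a bead signal intensity (linear, not normalized) and a detection p-value for each of 48701 probes on each array. Which scanner software wrote it, and with what background setting, is not stated in the labels. The deposited log2 values of the same arrays served as an alternative. Sorted by size, they were equal on all arrays to within 0.000887, as quantile normalization leaves them, and which step the authors ran is not stated in the labels. Probes were named from the platform annotation: 24782 had 1 gene symbol and 23919 had none, and 1 line without values was left out.

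Signals were corrected with limma's neqc (normexp with negative controls inferred from the detection p-values, offset 16, quantile normalization, log2; R 4.3.3, limma 3.58.1). Probes with detection p under 0.05 on at least 3 of 7 arrays were kept (17967 probes, 12372 genes). They were tested with lmFit and eBayes, two-sided, with Benjamini-Hochberg adjustment over all kept probes, and called at adjusted p under 0.05. Each gene was read by its brightest kept probe (mean of the 7 arrays). A probe undetected on all arrays of 1 group was given as a bound: the other group's mean against the higher, per array, of the lowest detected signal and the probe's own. Levels of different probes were not compared. The p-values measure only the spread between these samples, the number of arrays limits their precision, and no batch is named in the labels. The script was tested on simulated data.

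Any TRIM gene could be named. Values on every array were given for called TRIM genes at or past 2-fold and for called interferon-linked and chromatin-reading members, and up to 4 called genes with the smallest p were named from each other list, apart from genes said to be chosen after their values were seen. The members and lists were chosen with earlier results of these data known, so the lists carry counts and medians and no test of their own. Listed genes that the annotation does not name were not analysed here. Alternatives were other background corrections, scalings, filters, thresholds, choices of probe, eBayes with trend, a replicate block and leaving out each array.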

Additional observations from a re-analysis of the deposited data

Results flagged for a closer look

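A single shBrit1 array stood apart from the other 3 for 2 of the 45 tested TRIM genes, by a gap to its nearest neighbour that took up 0.909 of the group's whole range in each case, above Dixon's critical value. TRIM32 had a log2 signal of 9.12 on shBrit1 replicate 1, against 9.45 to 9.48 on the others. TRIM5 had 8.49 on shBrit1 replicate 2, against 8.34 to 8.36. Chance sets a sample apart in this way in about 1 in 20 groups. The controls, with 3 arrays, were not examined in this way.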

How the results depend on the processing

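Over 19 alternatives, 764 of 835 values of single TRIM genes kept their side of the threshold, 46 lost the call, 24 gained it and 1 both changed sign and was called: TRIM21, at -0.02 over all arrays, gave 0.38 without shControl replicate 3 (and -0.24 without shControl replicate 2). In all, 35 values of 15 genes had the other sign, none of them of a gene called over all 7 arrays, and 34 were called in neither fit. Of the 17 called genes, TRIM29, TRIM35, TRIM36, TRIM37, TRIM38, TRIM43, TRIM61 and TRIM73 (8) kept the call in every alternative that tested them, whereas TRIM16, TRIM62 and TRIM4 lost it in 11 each. TRIM61 met the main detection filter only with the controls, where it was higher, so its kept call is no independent support. Of the 28 genes not called, 16 were called in at least 1 alternative. The counts of 12 higher and 5 lower became 6 and 9 with median scaling (probes higher 8), which also turned 4829 higher and 4840 lower calls over all probes into 3589 and 5690. The genes called lower numbered 3 with no filter on dim probes, 1 with detection on all 7 arrays (2 probes), 3 with detection p under 0.01 (4 probes) and 3 at adjusted p under 0.01 (5 probes); fewer dim probes could be tested under the stricter filters, and the other causes were not tested. Leaving out each array in turn gave 10 to 18 genes higher and 3 to 6 lower (3 without any 1 shBrit1 array), 12 to 21 probes higher and 5 to 9 lower (5 without shBrit1 replicate 1, 2 or 3), and for the partner lists 14 to 26 genes higher (26 without shControl replicate 3, against 17) and 16 to 18 lower. Same-numbered arrays did not deviate together (correlations of 0.0967, -0.0211 and 0.0878), so the numbers were not taken as pairs; a replicate block over 3 pairs called 3 genes lower. Calls over all probes moved with the settings as well. They made 53.8% in the main fit, 19.3% with no filter on dim probes, 60.8% with detection on all 7 arrays and 65.8% with detection p under 0.01. Leaving out each array gave 48% to 63.4%, the highest without shControl replicate 3, and the replicate block gave 47.1%. Median scaling over the tested probes alone was added after seeing the data. Dim probes such as those of TRIM16, TRIM61 and TRIM62 lie near background, which limits their fold.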
